A study of Mus musculus with 26 samples.

Results

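The regions described here are stretches of open chromatin that were listed on day 4 of motor neuron differentiation and on no other mapped day. They were chosen by the deposited ATAC-seq peak lists alone, as the peaks of day 4 that share no base pair with a peak of day 2, 5 or 6, and 12154 of the 47839 day 4 peaks (25.4%) met this rule. The rule uses the presence of ATAC peaks, so ATAC values of these regions are given as description, and the maps of Ngn2, H3K27ac, p300, Onecut1 and Isl1 are the measurements that the rule did not use. Each ATAC day had 1 library, so there is no replicate check on which regions open on day 4 alone.

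The cultures started from mouse embryonic stem (ES) cells that were directed towards spinal motor neurons. ATAC-seq, in which a transposase cuts accessible DNA, was made from iCre cells on day 2 with no added agent, when the labels call them primitive ectodermal cells. On day 4 the cells had received 1 uM retinoic acid (RA) and 0.25 uM SAG, an activator of Hedgehog signalling, on day 2 and were labelled motor neuron progenitors. Cells of days 5 and 6, labelled postmitotic motor neurons, had also received 5 uM DAPT, an inhibitor of gamma-secretase and so of Notch signalling, from day 4. H3K27ac libraries of day 4 (2 replicates), day 5 and day 6, and p300, Onecut1 and Isl1 libraries of days 5 and 6 came from the same treatments. Ngn2 was mapped on day 4 with an antibody to the V5 tag, in cells given RA, SAG and, on day 3, 3 ug/ml doxycycline, so the map is of induced, tagged Ngn2. The ES cells used for DNase-seq on day 0 and the RNA of days 0 and 4 came from the HBG3 line, and a further label field names Ainv15 cells for all samples. For 1 of the day 4 H3K27ac libraries, replicate 2, the deposited name gives HBG3 and the label iCre. No label says whether replicates came from separate cultures.

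Open chromatin marks places where nucleosomes have been displaced, as at promoters and enhancers. Ngn2 (gene Neurog2) is a proneural basic helix-loop-helix factor that moves neural progenitors towards neuronal differentiation, and it binds E-box sequences. Acetylation of lysine 27 of histone H3 (H3K27ac) is found on nucleosomes beside active enhancers and promoters, and p300 is a coactivator that deposits it. Isl1, a LIM-homeodomain factor, and Onecut1, a cut-homeodomain factor, act in motor neurons after they leave the cell cycle.

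The RNA of day 4 fits its label as progenitors. All 5 progenitor markers (Olig2, Pax6, Nkx6-1, Sox3 and Hes5) stood at 1 FPKM or more, summing to 246.0 FPKM on day 4 against 10.1 on day 6. The 5 motor neuron markers found (Isl1, Mnx1, Lhx3, Onecut1 and Elavl4) also all stood at 1 FPKM or more on day 4. They summed to 17.5 FPKM on day 4 and 306.0 on day 6. Pou5f1, a pluripotency factor, stood at 0.296 FPKM on day 4 after 168.0 on day 0. In the interneuron list, 1 of 7 genes reached 1 FPKM on day 4 (Sox21, 18.8 FPKM). Sox21 fell to 1.62 FPKM on day 5 and 0.704 on day 6, and Pax6, Sox3 and Hes5 of the progenitor list fell too. On day 4, 0 of 3 V3 and floor plate markers, 2 of 3 glial markers and 2 of 5 mesoderm and endoderm markers reached 1 FPKM. These 3 lists summed to 0.172, 8.96 and 5.63 FPKM. The part of other cell types in the region lists was not tested. Among the mapped factors, Neurog2 stood at 0.0483, 19.7, 29.9 and 0.899 FPKM on days 0, 4, 5 and 6. Isl1 went through 0.0985, 3.68, 88.0 and 116.0 FPKM and Onecut1 through 0.0586, 1.99, 12.5 and 14.0. Ep300, which encodes p300, lay between 10.6 and 13.7 FPKM on all 4 days. The genes of Isl1 and Onecut1 were therefore read at low levels on the day when these regions were open and at higher levels afterwards. Neurog2 was read on days 4 and 5. The RNA of days 0 and 4 came from the HBG3 line and the ATAC from iCre cells, and a difference between lines was not tested.

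Regions listed on day 4 alone were weak among the peaks of their day. The strength of an ATAC peak is the authors' value in the fifth column of the list, and no source used here says what it means. Values below 10, the range checked, were whole multiples of 1 step in each library (0.349 on day 4). The step is taken here as the value of 1 read, and strengths are given as reads on that assumption. The median day 4 only region held 20 reads, with the middle 50% between 16 and 30 and a range of 10 to 210. All other day 4 peaks had a median of 32 reads. The median region ranked at percentile 30.8 of the day 4 list, against 57.5 for the other peaks. When the day 4 list was cut into 4 strength bins of about equal size, regions of day 4 alone made up 40.1% of the weakest bin (10 to 18 reads), 31.0% of the second, 20.8% of the third and 8.69% of the strongest (50 reads or more). Among the 481 strongest day 4 peaks, the top 1%, only 7 were listed on day 4 alone. On the same assumption the day 2 and day 5 libraries were 1.43 and 1.25 times as deep as day 4, and day 6 was 0.861 times as deep. The lowest listed peaks held 12 reads on days 2 and 5 and 11 on day 6, so a region present on another day below those values would not be listed there. How many regions owe their place to these limits was not tested.

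**Figure D1:**
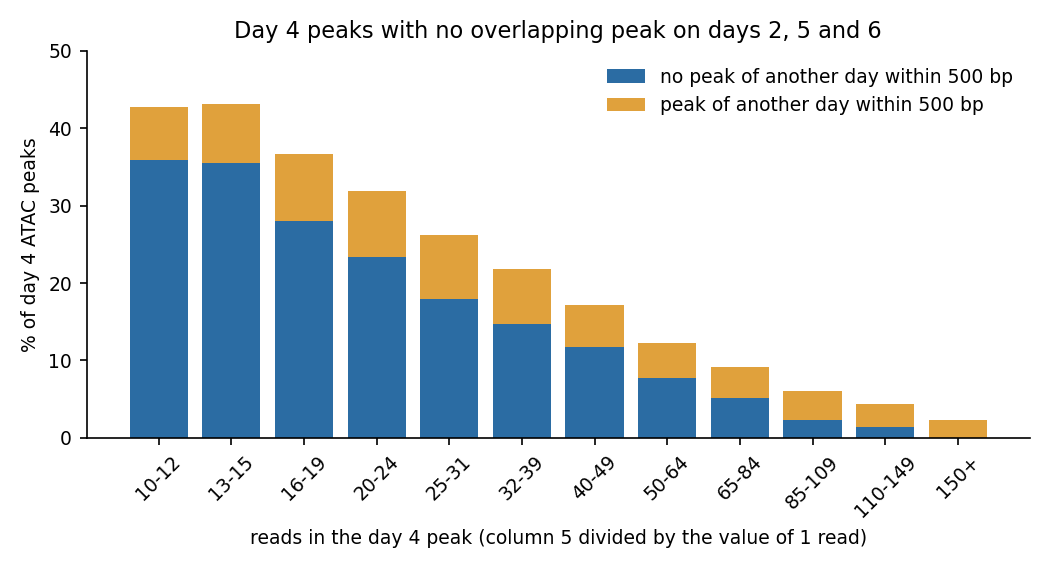
Share of day 4 ATAC peaks that overlap no peak of days 2, 5 and 6, in 12 bins of reads per peak, split into regions with and without a peak of another day within 500 bp. The share is 42.7% at 10 to 12 reads and 43.2% at 13 to 15, and falls to 2.25% at 150 reads or more, where every such region has another day's peak within 500 bp.

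Many of the strongest members lie right beside a peak of another day. All listed ATAC peaks are 100 bp wide, so an open site whose summit shifts by more than the width of a peak counts as 2 separate regions. A peak of another day lay within 100 bp of 1583 day 4 only regions (13%) and within 500 bp of 3284 (27%), and the median gap was 3738 bp. Within 500 bp were peaks of day 2 for 17.2% of the regions, of day 5 for 19.4% and of day 6 for 14.8%. The share with a neighbour within 500 bp rose with strength, from 20.2% in the weakest bin of the list to 27.9%, 32.1% and 45% in the strongest. The 3284 regions with such a neighbour are called flanked below, and the 8870 without one (73.0%) isolated. Isolated regions had a median of 20 reads and at most 149, and flanked ones a median of 24 and at most 210. Most shares below are given for both kinds, since the flanked regions may share their open site with another day.

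**Figure D2:**
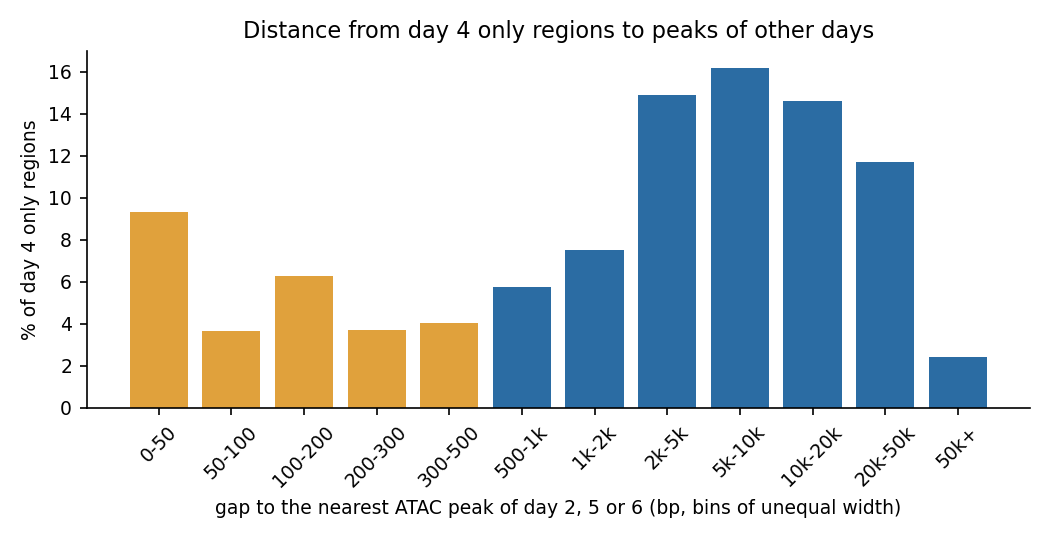
Gap from each of the 12154 day 4 only regions to the nearest ATAC peak of day 2, 5 or 6, as percent of regions in bins of unequal width. Bins under 500 bp (orange) hold the flanked regions, with 9.31% of all regions under 50 bp, and bins from 500 bp upward (blue) the isolated ones, most often at 5 to 10 kb (16.2%).

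The individual regions show the same split. The strongest region of day 4 alone, at chr11:3036094-3036193 (mm9, as are all positions), held 210 reads and had a day 2 peak 497 bp away. The second, at chr1:133424112-133424211, held 184 reads, and peaks of days 2, 5 and 6 lay 5, 19 and 4 bp from it. The fourth, at chr9:85983820-85983919, held 178 reads, with peaks of days 5 and 6 at 22 and 20 bp and the nearest day 2 peak at 45878 bp. Each of the 10 strongest regions had a peak of another day within 500 bp. The strongest isolated region, at chr5:147404347-147404446, held 149 reads and its nearest peaks of days 2, 5 and 6 were 7656, 7495 and 7482 bp away. At the edge of the rule, the region at chr1:38524748-38524847 (16 reads) touched a day 5 peak without sharing a base, while the day 4 peak at chr1:90736444-90736543 (44 reads) shared 1 bp with a day 2 peak and was left out. In all, 38 regions touched a peak of another day, and 426 of the 35685 other day 4 peaks overlapped one by 10 bp or less.

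Ngn2 peaks were found at a small share of the regions, and this share rose steeply with the strength of the region. An Ngn2 peak lay within 100 bp of 670 day 4 only regions (5.51%, exact 95% interval 5.11 to 5.93), beside 4.44% of all day 4 peaks and 4.08% (3.87 to 4.29) of the other day 4 peaks. Isolated regions stood at 5.23% and flanked ones at 6.27%. Here and below, intervals are Clopper-Pearson, treat regions as independent and cover counting error only. With 1 Ngn2 library and 1 ATAC library a day, no difference between classes could be tested over samples. From the weakest to the strongest bin of the day 4 list, the share with Ngn2 was 2.89%, 4.49%, 7.87% and 16.5% (14.3 to 19.0) of day 4 only regions. In the other day 4 peaks it was 2.17%, 2.86%, 4.57% and 5.94% (5.51 to 6.41). The gap between these classes was thus widest among strong peaks, where isolated regions alone gave 17.0% (14.0 to 20.3). The other day 4 peaks include the 18356 peaks of all 4 days, of which 1.57% had Ngn2.

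The day 4 only regions did not hold the highest share of Ngn2. Peaks listed on days 4 and 5 alone carried Ngn2 in 17.1% of 3218 cases (15.8 to 18.5), and in each strength bin their share was above that of day 4 only regions, from 11.2% in the weakest to 28.3% in the strongest. A wider class, day 4 peaks absent on day 2 and kept on day 5 or 6, carried Ngn2 in 10.3% of 8276 cases. Its share was also above that of day 4 only regions in each bin, from 5.99% in the weakest to 18.3% (16.5 to 20.2) in the strongest. In the strongest bin the intervals overlap. Peaks present on all 4 days carried Ngn2 in 1.57% of 18356 cases, and peaks of day 5 alone in 2.74% of 11259. Of the 2125 day 4 peaks with Ngn2, 31.5% were regions of day 4 alone. Seen from the Ngn2 list, 2118 of its 3184 peaks lay at a day 4 ATAC peak and 667 at a day 4 only region. The authors' score of an Ngn2 peak changed this little: between 18.9% and 22.2% of Ngn2 peaks lay at day 4 only regions and at no other day 4 peak in 4 bins of score. The share at any day 4 peak went from 56.2% in the lowest score bin to 80.9% in the highest. Counted among Ngn2 peaks at a day 4 peak, those at day 4 only regions alone thus went from 33.6% to 27.4%. At the regions, Ngn2 peaks had a median rank at percentile 52.1 of their list (56.1 at the other day 4 peaks) and a median distance of 54 bp from the centre of the region (50 bp).

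**Figure D3:**
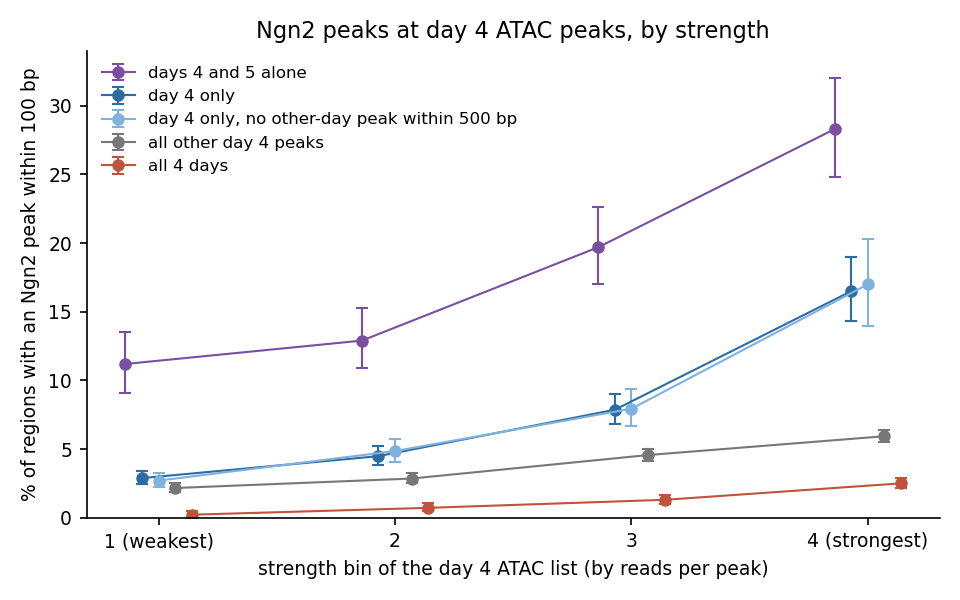
Percent of day 4 ATAC peaks with an Ngn2 peak within 100 bp (points, with exact 95% intervals as bars) in the 4 strength bins of the day 4 list, for 5 classes of peak. Day 4 only regions climb from 2.89% to 16.5%, above all other day 4 peaks (2.17% to 5.94%) and below peaks of days 4 and 5 alone (11.2% to 28.3%).

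Several of the strongest regions with Ngn2 can be placed exactly. The strongest, at chr16:74397817-74397916, held 152 ATAC reads and an Ngn2 peak with a score of 156, with a day 5 ATAC peak 191 bp away. The region at chr13:26246973-26247072 held 135 reads and an Ngn2 score of 359, an H3K27ac peak on day 5, and a day 5 ATAC peak 21 bp away. Among isolated regions the strongest with Ngn2, at chr2:147656439-147656538, held 128 reads and a score of 91.0, with no other-day peak within 16624 bp and no H3K27ac peak over it on any day. The next, at chr10:129693480-129693579, held 113 reads and a score of 132.0, with H3K27ac over it in both day 4 libraries and in neither later one. The isolated regions named here and below were chosen after their values were seen.

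H3K27ac covered a minority of the regions on each day. Over all strengths they were covered less often than the other day 4 peaks, but at matched strength this held in every bin on day 6 only. On day 4, 1909 regions (15.7%, 15.1 to 16.4) overlapped an H3K27ac peak in both libraries, beside 22.6% of all day 4 peaks and 24.9% of the other day 4 peaks. At least 1 of the libraries had a peak over 25.5% of regions, beside 31.1% of all day 4 peaks. The first library alone gave 22.4% of regions (27.6% of all day 4 peaks) and the second 18.8% (26.1%). On day 5 the share was 12.9% (15.0% of all and 15.7% of the other day 4 peaks), and on day 6 it was 13.7% (26.2% and 30.4%). The lists are not of equal reach: they cover 17.8 and 16.2 Mb on day 4, 11.5 Mb on day 5 and 29.8 Mb on day 6, so a share is best read against the other day 4 peaks of its own day. Over all strengths the distance was smallest on day 5 and largest on day 6. Since the regions are weak, the shares were also set side by side within the strength bins. On day 4 the weakest bin gave 6.4% (5.73 to 7.12) of regions and 3.78% (3.36 to 4.24) of other day 4 peaks, a higher share in the regions. The second bin gave 17.1% and 16.8%, and the 2 stronger bins gave lower shares in the regions, 26.7% against 34.7% and 30.3% against 37.6%. On day 5 the regions stood at 6.80% against 4.73% in the weakest bin, 13.7% against 13.3% and 20.4% against 22.7% in the next ones, and 22.6% against 19.5% in the strongest, where the intervals overlap. On day 6 they stood below the other peaks in each bin, from 8.85% against 12.9% in the weakest to 20.9% against 38.0% in the strongest. No H3K27ac peak on any of the 3 days overlapped 67.5% of the regions, against 57.4% of the other day 4 peaks.

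Much of this acetylation belonged to flanked regions. Isolated regions were covered in 9.19% of cases on day 4 (8.59 to 9.81), 7.35% on day 5 (6.82 to 7.91) and 5.28% on day 6 (4.82 to 5.76). Flanked regions stood at 33.3%, 28.0% and 36.6%. Strength mattered too: on day 4, isolated regions were covered in 4.49%, 9.76%, 15.8% and 20.7% of cases from the weakest to the strongest bin, while on day 6 the values were 4.31%, 5.94%, 6.56% and 5.13%. On day 6 the strongest isolated regions thus carried H3K27ac about as often as the weakest, within their intervals (3.46 to 7.29 and 3.70 to 4.99). In the other day 4 peaks the share on day 6 went from 12.9% in the weakest bin to 38.0% in the strongest.

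Acetylation that was present on day 4 was often still listed on day 5 and less often on day 6. Of the 1909 regions covered in both day 4 libraries, 53.4% (51.1 to 55.6) were covered on day 5, close to the 51.9% of the other day 4 peaks. On day 6, 42.4% (40.2 to 44.7) were covered, against 72.9% (71.9 to 73.8). In 38.0% of regions and 22.4% of other peaks neither later day listed the mark. Isolated regions separated further: of 815 covered on day 4, 40.5% were covered on day 5 and 16.9% on day 6, and 55.0% on neither. Of 1094 flanked regions covered on day 4, 63.0% and 61.4% were covered on days 5 and 6. An isolated example is the region at chr13:115642603-115642702, with 127 ATAC reads, where the authors' H3K27ac score was 78.15 and 34.52 in the day 4 libraries and 13.27 on day 5, with no peak on day 6.

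Regions with Ngn2 carried H3K27ac beside them on days 4 and 5 more often than regions without it, and on day 6 they did not. H3K27ac lies on nucleosomes beside an open site, and peaks within 500 bp were therefore counted too. By that count, 49.3% (45.4 to 53.1) of the 670 regions with Ngn2 had H3K27ac in both day 4 libraries, against 28.5% of the 11484 regions without, beside 40.2% of all day 4 peaks. On day 5 the shares were 51.8% (47.9 to 55.6) and 19.7% (18.9 to 20.4), beside 33.4% of all day 4 peaks. On day 6 they were 18.8% (15.9 to 22.0) and 18.4% (17.7 to 19.1), beside 41.3%. In isolated regions the same counts gave 45.9% and 21.8% on day 4, 46.6% and 12.2% on day 5, and 10.1% and 7.86% on day 6. Among the other day 4 peaks with Ngn2 the share was 55.5% on day 4, 63.6% on day 5 and 41.0% on day 6. Without Ngn2 the other peaks stood at 43.3%, 36.4% and 49.4%, so by this count the contrast on days 4 and 5 was found outside the day 4 only regions too. Isolated regions lay furthest below the other peaks on day 6, both with Ngn2 and without.

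**Figure D4:**
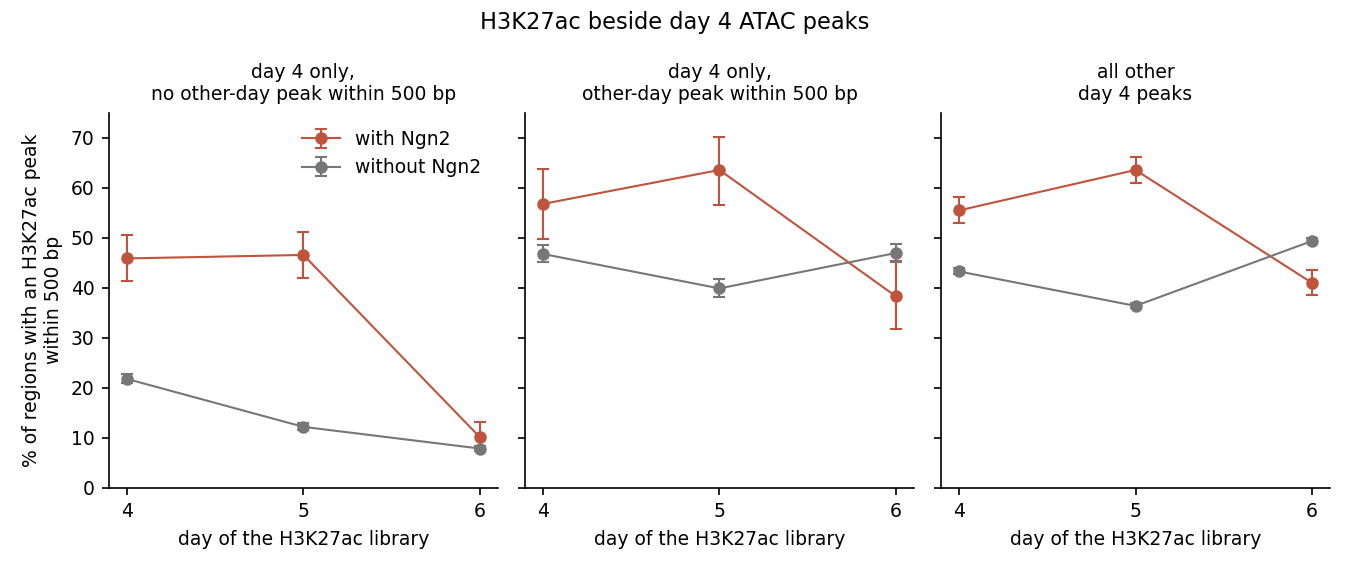
Percent of regions with an H3K27ac peak within 500 bp on days 4 (both libraries), 5 and 6, with exact 95% intervals, for regions with and without an Ngn2 peak, in 3 classes of day 4 ATAC peak. Isolated day 4 only regions with Ngn2 stand at 45.9% and 46.6% on days 4 and 5 and at 10.1% on day 6, and each line joins separate libraries.

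Regions with Ngn2 were also stronger (median 30 reads against 20), so the count was repeated by strength. In isolated regions of the weakest bin, day 5 H3K27ac lay within 500 bp of 44.9% (35.2 to 54.8) of 107 regions with Ngn2 and 7.51% (6.69 to 8.39) of 3836 without. In the strongest bin the values were 56.2% (45.7 to 66.4) of 96 and 24.7% (20.9 to 28.9) of 469. On day 4 the weakest bin gave 22.4% (14.9 to 31.5) against 10.2% (9.23 to 11.2) and the strongest 74.0% (64.0 to 82.4) against 60.3% (55.8 to 64.8). On day 6 the shares with Ngn2 lay between 7.29% and 12.7% over the 4 bins and those without between 6.54% and 9.86%. The day 5 contrast of isolated regions therefore stood in every strength bin, and their day 4 contrast was smaller. Over all day 4 only regions of the strongest bin, isolated and flanked, the day 4 shares were 70.0% with Ngn2 and 69.5% without, and the day 5 shares 57.1% and 40.4%. The day 6 shares of that bin were lower with Ngn2, at 18.8% (13.2 to 25.5) against 31.1% (28.0 to 34.3). In the weakest bin they were 17.5% with Ngn2 and 12.3% without. When H3K27ac had to overlap the region itself, regions with and without Ngn2 differed more on day 5 (27.5% and 12.1%) than in both day 4 libraries (19.4% and 15.5%). The first day 4 library alone gave 31.8% and 21.9%, and the second 23.3% and 18.5%. In the other day 4 peaks the overlap on day 5 was 25.4% with Ngn2 and 15.3% without. In both day 4 libraries it was lower there with Ngn2, at 21.3% against 25.0%. Within strength bins of the day 4 only regions, overlap in both day 4 libraries was lower with Ngn2 in 3 of 4. It was 3.50% against 6.48% in the weakest bin and 27.6% against 30.8% in the strongest. In isolated regions alone it was higher with Ngn2 in 3 of 4 (2.80% against 4.54% in the weakest and 32.3% against 18.3% in the strongest). Among regions with no H3K27ac over them in either day 4 library, day 5 listed it over 11.6% of 431 with Ngn2 and 3.01% of 8625 without. The other day 4 peaks showed much the same, with 10.6% of 968 and 2.01% of 22930.

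Later p300 was scarce at the regions, and most of what there was belonged to flanked ones. On day 5 a p300 event lay within 100 bp of 532 regions (4.38%, 4.02 to 4.76), beside 19.3% of all day 4 peaks and 24.4% (24.0 to 24.9) of the other day 4 peaks. Isolated regions stood at 1.22% (1.00 to 1.47) and flanked ones at 12.9% (11.8 to 14.1). Peaks of day 5 alone stood at 13%. A day 5 ATAC peak lay within 500 bp of 73.5% of the 532 regions, and of 16.9% of the regions without p300. The share rose with strength in all regions, from 2.25% in the weakest bin to 12.6% in the strongest. It also rose in the other day 4 peaks, from 8.06% to 38.9%. In isolated regions it only went from 1.04% to 2.30% (1.23 to 3.90). The day 6 list held 1337 p300 events against 19398 on day 5, and it marked 18 day 4 only regions (0.148%, beside 0.531% of all day 4 peaks), which were 0.0676% of isolated and 0.365% of flanked regions.

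Regions with p300 on day 5 were often acetylated. H3K27ac covered 48.5% of them on day 4, 51.3% on day 5 and 64.3% on day 6, against 14.2%, 11.2% and 11.4% of the regions without p300. The other day 4 peaks also had more H3K27ac with p300 (45.6%, 29.9% and 56.9%) than without (18.2%, 11.2% and 21.9%). The 108 isolated regions with p300 stood at 31.5%, 38.0% and 25.9%, against 8.91%, 6.97% and 5.02% of isolated regions without. The 424 flanked regions with p300 stood at 52.8%, 54.7% and 74.1%, against 30.4%, 24.1% and 31.0%. Regions with Ngn2 had day 5 p300 in 9.40% of cases (7.30 to 11.9) and regions without in 4.08%, beside 32.9% and 24.1% in the other day 4 peaks. In isolated regions the values were 3.88% (2.32 to 6.06) and 1.07% (0.862 to 1.31). One flanked example is the region at chr12:45310997-45311096, with 149 ATAC reads and a p300 event of 127.0 reads on day 5, 7 bp from a day 5 ATAC peak, where H3K27ac was listed in all 4 libraries. The strongest isolated region with p300, at chr5:97629833-97629932, held 81 ATAC reads and a p300 event of 47.0 reads, with no H3K27ac peak over it on any day.

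Onecut1 was found at few of the regions, although its lists were the longest of the factor maps. An event of day 5 lay within 100 bp of 181 regions (1.49%, 1.28 to 1.72), beside 2.22% of all day 4 peaks and 2.47% of the other day 4 peaks. On day 6 there were 323 regions (2.66%, 2.38 to 2.96), beside 4.85% and 5.60%, and 110 regions were marked on both days. Peaks of day 5 alone stood at 6.91% on day 5 and 10.1% on day 6. Isolated regions differed less from flanked ones here than for p300, with 1.23% and 2.19% on day 5 and 2.22% and 3.84% on day 6. Strength made no clear difference either, with 2.91% of regions in the weakest bin and 2.82% (1.90 to 4.03) in the strongest on day 6. Of the 323 regions, 25.4% had a day 6 ATAC peak within 500 bp, against 14.5% of the regions without Onecut1. The region with the strongest ATAC signal among those with Onecut1, at chr8:4677756-4677855, held 177 ATAC reads, an Onecut1 event of 236.0 reads on day 6, H3K27ac in all 4 libraries and a DNase peak in ES cells, with a day 6 ATAC peak 11 bp away. Among isolated regions it was chr3:138517710-138517809, with 126 ATAC reads, Onecut1 events of 14.7 and 31.0 reads on days 5 and 6, and H3K27ac on days 5 and 6 and not on day 4.

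Isl1 had the smallest share of the later factors at the regions, but the lists differ in length. Its libraries listed 2260 and 1079 events on day 5, against 19398 of p300 and 23245 of Onecut1, and 1470 and 1560 on day 6. Set against all day 4 peaks, day 5 p300 was further below (4.38% against 19.3%). On day 6 the interval of p300 (0.0878 to 0.234) overlaps that of Isl1. On day 5, an Isl1 event of at least 1 of the 2 libraries lay within 100 bp of 73 regions (0.601%, 0.471 to 0.755), beside 0.953% of all day 4 peaks and 1.07% of the other day 4 peaks. The other day 4 peaks were mixed. Peaks of all 4 days stood below the regions, at 0.261% (0.193 to 0.347). Peaks absent on day 2 and kept on day 5 or 6 stood above them, at 3.67%, as did peaks of days 4 and 5 alone, at 3.23%. By strength, the regions stood at 0.587% against 1.38% of other peaks in the weakest bin, then 0.546% against 1.22% and 0.471% against 0.997%. In the strongest bin they stood at 1.17% (0.605 to 2.03) against 0.806% (0.646 to 0.993), where the intervals overlap. Events of both libraries were found at 12 regions (0.0987%, beside 0.213%). On day 6 at least 1 library gave 14 regions (0.115%, 0.0630 to 0.193, beside 0.523%) and both gave 2 (0.0165%, beside 0.0732%). The day 6 share in at least 1 library was 0.0338% of isolated and 0.335% of flanked regions. These shares rest on single libraries: without replicate 1 the day 5 share was 0.230%, and without either replicate the day 6 share was 0.0658%. Peaks of day 5 alone stood at 6.24% on day 5 and 2.03% on day 6. Of the 73 regions, 55 were flanked (1.67% of flanked regions) and 18 isolated (0.203%), and 74.0% had a day 5 ATAC peak within 500 bp. Ngn2 was also found at 21 of the 73: Isl1 of day 5 lay at 3.13% (1.95 to 4.75) of the regions with Ngn2 and 0.453% (0.338 to 0.593) of those without. The other day 4 peaks showed a contrast in the same direction, with 6.25% and 0.853%. In isolated regions this was 1.51% (0.609 to 3.08) and 0.131% (0.0653 to 0.234), which rest on 7 and 11 regions.

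Single Isl1 regions show how close the neighbouring open sites can be. The strongest with Isl1, at chr11:82219879-82219978, held 123 ATAC reads, an Ngn2 score of 122, p300 (282.0 reads), Onecut1 (13 reads) and Isl1 (18.0 reads in replicate 1) on day 5, and peaks of days 5 and 6 lay 5 bp away. The strongest isolated region with Isl1, at chr7:138608747-138608846, held 51 ATAC reads and an Ngn2 score of 71.0. Its Isl1 events of day 5 held 31.8 and 19.0 reads in the replicates, and the nearest day 5 ATAC peak was 11941 bp away.

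Counted together, a later p300, Onecut1 or Isl1 event was found at 937 of the 12154 regions (7.71%), beside 23.8% of all and 29.3% of the other day 4 peaks. Most of these regions had 1 factor alone: 477 had p300, 344 Onecut1 and 39 Isl1. The same held for the 10461 other day 4 peaks with an event, where 7875 had p300 alone, 1407 Onecut1 and 177 Isl1. All 3 were found at 6 regions (0.0494%, against 0.342% of the other day 4 peaks). None of the maps used here, DNase of ES cells and the library labelled Lhx3 included, listed anything at 7408 regions (61.0%), against 43.3% of the other day 4 peaks. The DNase peaks of day 0 lay within 100 bp of 243 regions (2.00%, 1.76 to 2.26, beside 4.94% of all day 4 peaks), with 1.51% of isolated and 3.32% of flanked regions. The library labelled Lhx3 was made on day 4 with an antibody to V5, in NIL cells given RA and doxycycline on day 2 with no SAG named, and its deposited name mentions Isl1. It had an event within 100 bp of 17 regions (0.140%, 0.0815 to 0.224), beside 0.196% of all day 4 peaks, with 0.0676% of isolated and 0.335% of flanked regions.

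**Figure D5:**
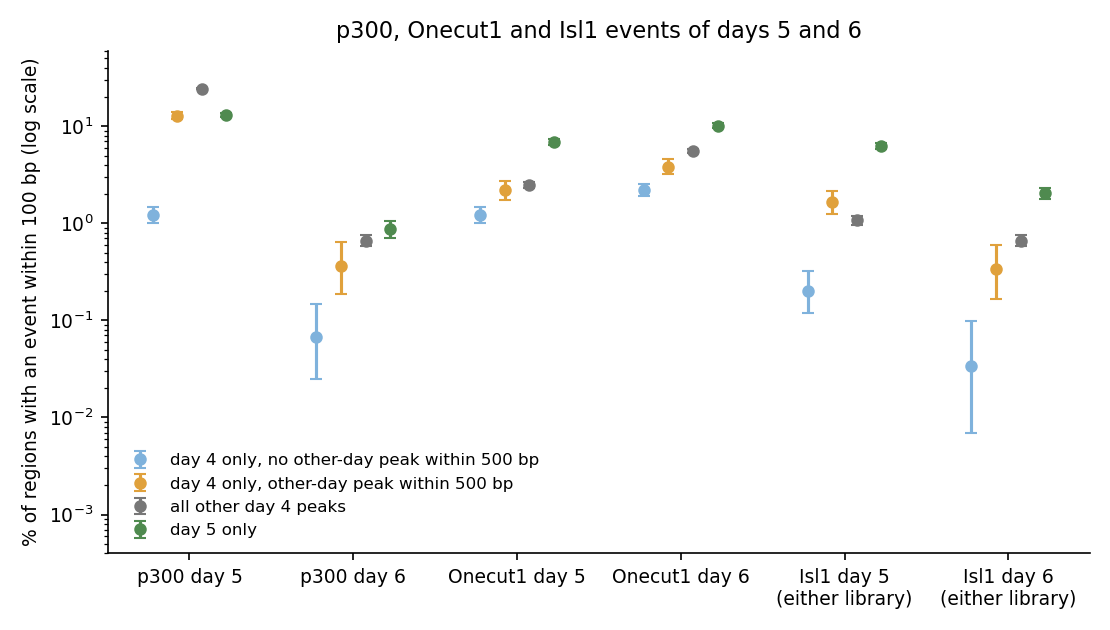
Percent of regions with a p300, Onecut1 or Isl1 event within 100 bp on days 5 and 6, on a log axis, with exact 95% intervals, for isolated and flanked day 4 only regions, all other day 4 peaks and day 5 only peaks. Isolated regions have the lowest share in all 6 columns, from 2.22% for Onecut1 on day 6 down to 0.0338% for Isl1 on day 6.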

How the data were processed

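The deposited lists of 19 libraries were used, each of 1 library, in mm9. HOMER 4.7.2, MACS, STAR and Bowtie 0.12.7 were used per the submitters' processing notes, which do not say for what. ATAC peaks carry a signal deposited by the authors, scaled per library, of which all values under 10 were whole multiples of 1 step within 0.01, and this step was taken as 1 read. Events of p300, Onecut1 and Isl1 carry a read signal per the file headers. Ngn2, H3K27ac and DNase peaks carry a score deposited by the authors, on a scale not given in the sources used here. RNA is in FPKM made by the authors.

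Point lists were matched to regions within 100 bp and H3K27ac by 1 bp of overlap, with Python 3.11.15, numpy 2.4.6, pandas 2.3.3 and scipy 1.17.1. The matching was tested on simulated intervals. Regions were named by rank: the 10 strongest, the 5 strongest with Ngn2 or day 4 H3K27ac, the 3 strongest with each later factor, the 3 densest stretches, and 3 on each side of the edge of the rule. Not all named by the rule are printed. The members and lists were chosen with earlier results of these data known. The DNase list held 20776 blank rows, which were dropped. Control libraries (IgG, whole cell extract) entered no comparison. Sequences, motifs and genes near the regions were not analysed here. Map2 was not analysed here.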

Additional observations from a re-analysis of the deposited data

How the results depend on the processing

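No paired analysis was possible because the results come from no test. The motif shares and the genes near the regions, with their alternatives, were not run. Each library is 1 sample except H3K27ac of day 4 and Isl1, so depth and replicate error limit every share. Of 126 such values under other settings, 28 stayed near the reported value (counts within 1.5 times, percentiles within 1 SD, shares within their intervals). A further 55 moved up and 43 down, and the cause was not tested. Of 124 shares, the reported ones included, 111 lay below that of the other day 4 peaks in the same setting and 13 above. Ngn2 lay above in all 10 of its settings. H3K27ac of days 4 and 5 lay above only for day 4 peaks at or above the median, where the other peaks include weak ones. The library labelled Lhx3 lay above only with an overlap of 50 bp needed. H3K27ac near Ngn2 regions was also counted within 500 bp and in isolated regions, a choice made after seeing the data.

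With a peak of another day within 100 bp counted as shared, flanked regions were 16.1%, H3K27ac of days 4, 5 and 6 13.9%, 11.2% and 10.6%, p300 of days 5 and 6 2.30% and 0.0851%, Onecut1 1.22% and 2.33%, Isl1 0.274% and 0.0378%, and DNase 1.56%. Within 500 bp, H3K27ac was 9.19%, 7.35% and 5.28%, p300 1.22% and 0.0676%, Onecut1 1.23% and 2.22%, Isl1 0.203% and 0.0338%, the library labelled Lhx3 0.0676% and DNase 1.51%. With an overlap of 50 bp needed, flanked regions were 44.8%, Ngn2 6.05%, H3K27ac 18.5%, 14.7% and 18.6%, p300 8.81% and 0.336%, Onecut1 1.81% and 3.35%, Isl1 0.927% and 0.305%, and DNase 2.70%.

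Day 4 peaks at or above the median of their list gave 3617 regions at percentile 66.2, of which 35.7% were flanked, with Ngn2 at 10.3%, H3K27ac at 27.8%, 21.0% and 19.2%, p300 of day 5 at 8.10% and DNase at 2.57%. The same limit on the lists of days 2, 5 and 6 gave 19391 regions, 54.3% flanked, with Ngn2 at 5.95%, H3K27ac of day 6 at 15.3%, p300 of day 5 at 6.41%, Onecut1 at 1.85% and 3.47%, and DNase at 2.57%.

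Inside the region, Ngn2 was 2.55%, p300 1.60% and 0.0165%, Onecut1 0.592% and 0.971%, Isl1 0.230% and 0.0494%, and DNase 0.897%. Within 250 bp, Ngn2 was 6.62%, p300 6.73% and 0.239%, Onecut1 2.55% and 4.46%, Isl1 0.938% and 0.280%, Lhx3 0.255% and DNase 2.75%. Within 500 bp, Ngn2 was 7.56%, H3K27ac 29.6%, 21.4% and 18.4%, p300 8.68% and 0.346%, Onecut1 3.69% and 6.82%, Isl1 1.14% and 0.403%, Lhx3 0.354% and DNase 3.55%, and H3K27ac within 1000 bp was 30.7%, 22.6% and 19.9%.

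With mapped lists at or above their median, Ngn2 was 2.82%, H3K27ac 10.8%, 9.02% and 10.7%, p300 of day 5 2.44%, Onecut1 0.922% and 1.74%, and Isl1 of day 5 0.247%. H3K27ac of day 4 was 25.5% in at least 1 library, and Isl1 in both libraries 0.0987% on day 5 and 0.0165% on day 6. Leaving out each replicate gave 18.8% to 22.4% for H3K27ac of day 4 and 0.230% to 0.469% for Isl1 of day 5.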

Other observations

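Day 4 only regions were spread over the genome. They made up between 21.4% and 30.1% of the day 4 peaks of each chromosome from 1 to 19, and 25.3% on X. Joining regions no more than 10 kb apart gave 10560 stretches, of which 9196 held a single region, so 24.3% of the regions had another within that distance. A run of 3 or more was found in 200 stretches with 630 regions in all, and the largest number in 1 stretch was 5.

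The 3 stretches with 5 regions each lay at chr1:130475123-130493795, chr1:191952675-191972951 and chr3:34457845-34467241. The first spanned 18.7 kb and held 7 day 4 peaks, 5 of them on day 4 alone. H3K27ac lay over 1 of the 5 in both day 4 libraries and over 3 in at least 1 of them, over 3 on day 5 and over 0 on day 6. In the second (20.3 kb) all 5 day 4 peaks were regions of day 4 alone, and H3K27ac covered 3 of them in both day 4 libraries, 2 on day 5 and 1 on day 6. In the third (9.40 kb) all 5 were regions of day 4 alone too, with H3K27ac over 2, 1 and 0 of them. No Ngn2 peak lay within 100 bp of any of these 15 regions. Since 5.51% of all day 4 only regions and 4.44% of all day 4 peaks had Ngn2, 15 regions are too few to show a lower share. H3K27ac covered 15.7% of all day 4 only regions in both day 4 libraries, 12.9% on day 5 and 13.7% on day 6. For all day 4 peaks these shares were 22.6%, 15.0% and 26.2%.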
